A study of Mus musculus with 6 samples.

Results

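Keratins are the intermediate filament proteins of epithelial cells, and 51 of the 19937 genes measured here were keratin genes. A gene was taken as a keratin when its symbol was Krt followed by digits and at most 1 letter, and each of the 51 was read by 1 probe set. Krt74 was left out because the mouse gene table lists it as a transcribed pseudogene, and Krt81 and Krt83 had no probe set of a single symbol and were not analysed here. By name, 5 were grouped as luminal, 4 as basal, 12 as squamous, 21 as hair and 9 as other keratins.

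The arrays came from mammary epithelial organoids of female FVB mice carrying the inducible ErbB3 knockout (ErbB3 DOX-KO), kept for 14 days in growth factor-reduced Matrigel. The DOX group (3 arrays) had 5 µM doxycycline, which induces the knockout, and the control group (3 arrays) came from the same genotype and culture without it. The promoter and the cell type in which the knockout is induced, and whether organoids of several mice were pooled, are not given in the labels. The labels call the replicates biological without naming animals, so p-values measure the spread between these cultures.

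Keratins assemble as obligate pairs of a type I and a type II protein into filaments that are anchored at desmosomes and hemidesmosomes and carry mechanical load. In the mammary gland Krt8 and Krt18, with Krt7 and Krt19, mark the inner luminal layer that makes milk, while Krt5, Krt14 and Krt17 mark the outer basal or myoepithelial layer. Squamous keratins such as Krt1, Krt10, Krt6a and Krt16 belong to stratified or wounded epithelium, and hair keratins build the hair shaft and its root sheath. The genes lie in 2 clusters, 27 of the measured genes on chromosome 11 and 24 on chromosome 15. Krt18 is the exception among the type I genes, since it lies near Krt8 in the chromosome 15 cluster.

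The luminal keratins Krt7, Krt8 and Krt18 had the highest mean readings of the keratins, and the bases before their annotated start sites are shown first. The sequences are RefSeq windows of build GRCm38.p6, each 250 bases before the start and 30 from it, 5′ to 3′ on the gene's strand. Of the 51 keratins, 36 had such a window, and 1 window per gene was used. Krt7 is read from chr15:101412153-101412432 on the plus strand, Krt8 from chr15:102004313-102004592 on the minus strand and Krt18 from chr15:102027966-102028245 on the plus strand. Capitals mark letters that match a searched motif on either strand.
Krt7: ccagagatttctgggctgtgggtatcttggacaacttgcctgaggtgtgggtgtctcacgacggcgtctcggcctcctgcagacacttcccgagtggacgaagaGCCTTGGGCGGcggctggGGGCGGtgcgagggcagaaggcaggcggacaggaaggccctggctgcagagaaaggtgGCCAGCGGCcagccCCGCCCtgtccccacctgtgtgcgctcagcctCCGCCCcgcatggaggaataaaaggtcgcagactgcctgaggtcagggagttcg
Krt8: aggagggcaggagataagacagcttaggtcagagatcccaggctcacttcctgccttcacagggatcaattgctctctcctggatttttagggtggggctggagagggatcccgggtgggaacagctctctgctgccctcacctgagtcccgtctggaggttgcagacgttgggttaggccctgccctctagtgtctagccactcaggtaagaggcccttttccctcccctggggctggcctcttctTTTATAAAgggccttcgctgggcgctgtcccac
Krt18: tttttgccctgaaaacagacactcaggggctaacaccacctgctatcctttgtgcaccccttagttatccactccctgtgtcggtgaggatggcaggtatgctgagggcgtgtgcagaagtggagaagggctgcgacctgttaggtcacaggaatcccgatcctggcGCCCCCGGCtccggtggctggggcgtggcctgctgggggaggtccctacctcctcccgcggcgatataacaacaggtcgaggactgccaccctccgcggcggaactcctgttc

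The motifs searched were GCCNNNGGC, the core bound by AP-2 factors, GGGCGG (the GC box), TATAAA (the TATA box) and TGANTCA, which AP-1 binds. Krt7 held 2 AP-2 cores and 4 GC boxes, and 1 core overlapped 1 of the GC boxes. Krt18 held 1 AP-2 core, and Krt8 held TATAAA on both strands in overlapping letters at its start. The AP-2 core was present in 15.3% of windows over all 27025 genes and in 7 of the 36 keratin windows. TATAAA was present in 13.7% of all windows and in 19 of the 36 keratin windows, GGGCGG in 34.9% and 2 of 36, and TGANTCA in 7.57% and 1 of 36. The 3 windows thus shared no motif of the 4, and a match is a description of letters and not evidence of binding.

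Each value is the log2 expression of a probe set, and differences are DOX minus control on that scale, so that a difference of 1 is a factor of 2. The median gene averaged 5.92 over the 6 arrays. DOX replicate 2 stood apart from the rest: across genes it correlated at 0.816 to 0.865 with the other 5 arrays, while each pair of those 5 reached 0.963 or more. High genes read low on it and low genes read high, with a median difference from control of −1.59 in the 10% of genes highest in control and 0.84 in the 10% lowest. Apart from that of Erbb3, differences are therefore given with and without that array. Erbb3 itself read 9.31 to 10.36 in DOX arrays and 9.69 to 9.78 in control arrays (difference 0.10 with all arrays, limma adjusted p = 0.845). Its control readings lay among the 10% of genes highest in control, which read low on DOX replicate 2. That difference therefore does not show Erbb3 unchanged. Whether its probe set lies in the deleted part is not given, so it is no check of the labels, which all directions follow. Of 12 luminal marker genes 9 lay above the median gene, against 2 of 9 basal markers, and Krt5, Trp63, Acta2, Myh11, Mylk, Cnn1 and Tagln were below the median of every control array.

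No keratin passed the test with all 6 arrays. In limma 0 of 51 rose and 0 fell at an adjusted p below 0.05, where 0.12% of all genes rose, 2.26% fell and 2.38% did either. At an unadjusted p under 0.05 there were 5 keratins, namely Krt7, Krt8, Krt18, Krt14 and Krt26, where 14% of all genes passed. The DOX arrays lay wholly below the control arrays for 5 keratins and wholly above them for 4, where 20.3% and 11.7% of all genes did so. That is 9 of 51 without overlap (17.6%), where 32% of all genes had none. Without DOX replicate 2, Krt7, Krt8, Krt18, Krt14 and Krt20 fell and Krt26 rose. That is 5 of 51 lower where 14.3% of all genes fell, 1 of 51 higher where 12.3% rose, and 6 in all (11.8%) where 26.6% passed. At an unadjusted p under 0.05 there were 11 keratins in that fit, where 37% of all genes passed. Groups without overlap numbered 12 lower and 5 higher among the keratins, 17 in all (33.3%), where the shares over all genes were 26.2% lower, 25.4% higher and 51.6% in all.

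Calls were also counted by level. Of the 7 keratins whose mean over the arrays lay above the median gene, 4 passed without DOX replicate 2 (57.1%), where 41.9% of all genes above it passed. Of the 44 others 2 passed (4.55%), where 11.3% of all genes at or below it passed. With all arrays these backgrounds were 3.95% and 0.802%, and no keratin passed on either side. Krt7, Krt8 and Krt18 lay above the median gene on every array, while Krt14 lay above it on its control arrays and below it on every DOX array. The place of Krt14 among the 7 thus rests on its control arrays, and these shares are a description. RMA gives no detection calls, so whether a keratin with a low reading was expressed was not settled, and a difference there can be understated. In RNA from whole cultures, fewer cells of a type and less RNA per cell cannot be told apart.

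Krt8 is the main type II keratin of luminal cells. It read 11.77, 10.97 and 11.79 in DOX replicates 1 to 3, against 12.54, 12.52 and 12.49 in control replicates 1 to 3. All DOX arrays lay below all control arrays, and DOX replicate 2 was the lowest. The means were 11.51 ± 0.47 in DOX arrays and 12.52 ± 0.03 in control arrays (SD, n = 3 each), and the log2 difference was −1.01 (SE 0.26, 95% confidence interval −1.64 to −0.38, limma adjusted p = 0.145). Krt8 fell by 0.74 (SE 0.11, limma adjusted p = 4.94e-04) without DOX replicate 2, which is 1.67-fold lower.

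Krt18 is the type I partner of Krt8. It read 11.96, 12.01 and 12.06 in DOX arrays, against 12.58, 12.69 and 12.65 in control arrays. The groups did not overlap, and DOX replicate 2 lay between the other DOX arrays, unlike for Krt8. The means were 12.01 ± 0.05 in DOX arrays and 12.64 ± 0.05 in control arrays (SD, n = 3 each), and the log2 difference was −0.64 (SE 0.16, 95% confidence interval −1.02 to −0.25, limma adjusted p = 0.135). When DOX replicate 2 was left out, Krt18 fell by the same 0.64 (SE 0.11, limma adjusted p = 0.00156), which is 1.55-fold lower.

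Krt7 is a further type II keratin of simple and glandular epithelium. It read 10.37, 9.90 and 10.78 in DOX arrays, against 11.25, 11.32 and 11.36 in control arrays. The groups again did not overlap, and the spread was wider among the DOX arrays, at 0.44 against 0.06 in controls (SD, n = 3 each). The log2 difference was −0.96 (SE 0.25, 95% confidence interval −1.57 to −0.35, limma adjusted p = 0.152). Among the other 5 arrays Krt7 fell by 0.74 (SE 0.14, limma adjusted p = 0.00215), which is 1.67-fold lower.

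**Figure D1:**
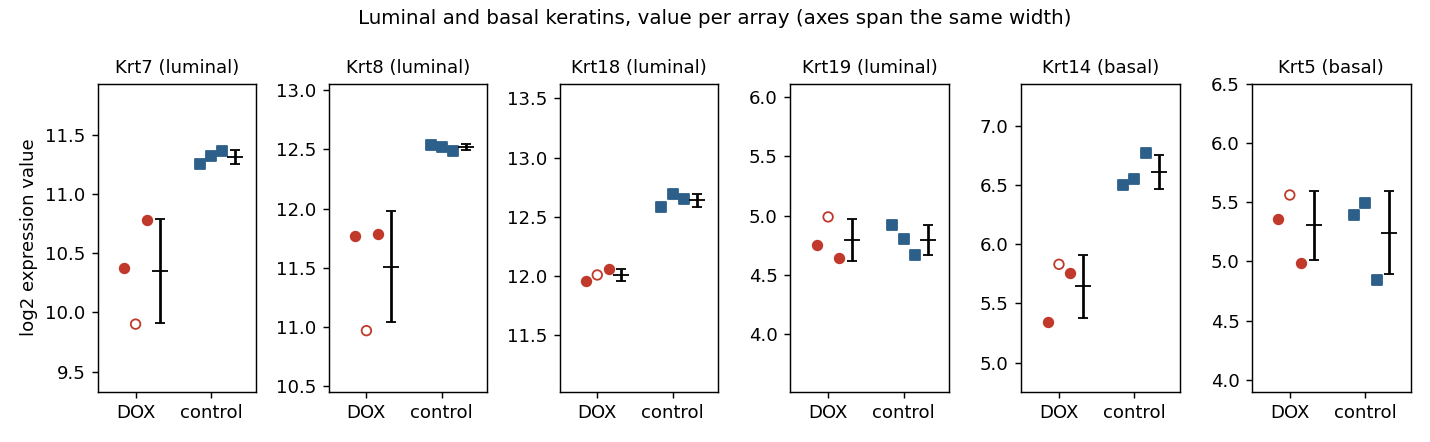
Log2 expression value on each array (y axis) of 4 luminal and 2 basal keratins, DOX arrays as red circles with replicate 2 open, control arrays as blue squares, and mean ± SD as black bars (n = 3 each). Each y axis has its own position but the same width. Krt7, Krt8, Krt18 and Krt14 have no overlap between groups, and Krt19 and Krt5 overlap.

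Since DOX replicate 2 read low for most high genes, each luminal keratin was set beside genes of a similar control reading. There were 256 genes with a control mean of at least 11, a level chosen after the values were seen, and Krt7, Krt8 and Krt18 were among them. Their median difference from the control mean was −0.10, −1.50 and −0.17 on DOX replicates 1, 2 and 3. Krt8 differed by −0.75, −1.55 and −0.73 on these arrays, Krt18 by −0.69, −0.64 and −0.59, and Krt7 by −0.94, −1.41 and −0.53. On DOX replicate 1 the share of these genes that lay lower than the keratin was 16.4% for Krt8, 17.2% for Krt18 and 11.3% for Krt7. On DOX replicate 3 it was 13.7%, 19.5% and 23.4% in the same order. On DOX replicate 2 it was 48% for Krt8, 75.4% for Krt18 and 53.5% for Krt7. The 3 keratins therefore lay among the lower of such genes on replicates 1 and 3, and on replicate 2 Krt7 and Krt8 lay near their middle and Krt18 well above it.

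**Figure D2:**
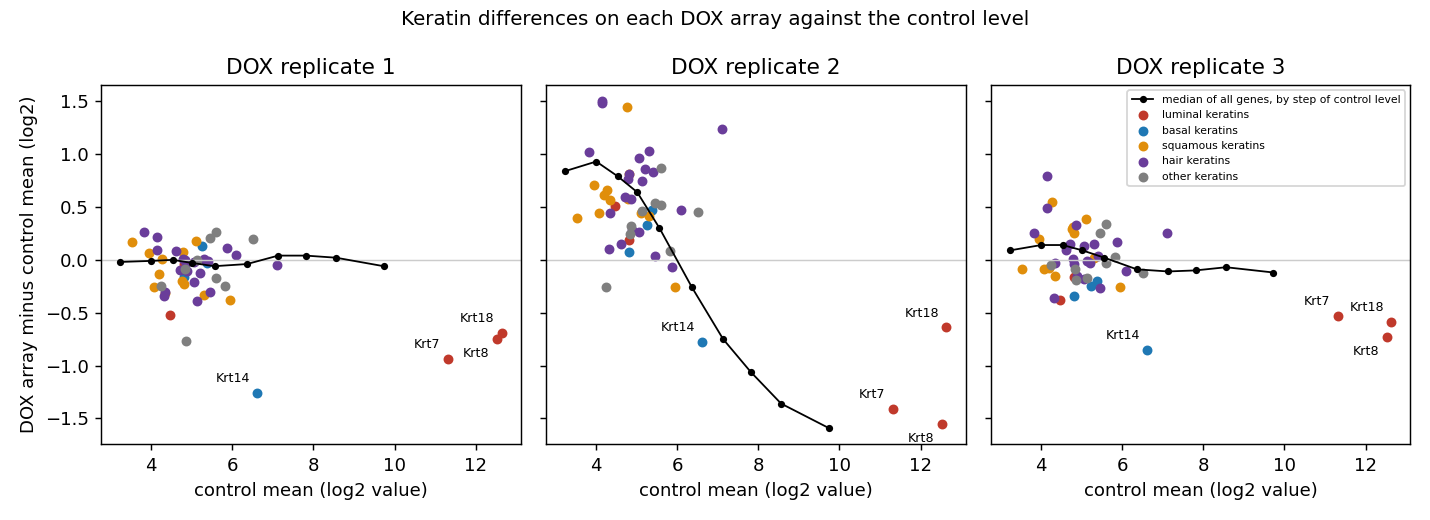
Difference of each DOX array from the control mean (y axis, log2) against the control mean (x axis, log2 value) for the 51 keratins, coloured by group, with the median of all genes in 10% steps of control level as a black line. On replicates 1 and 3 the line is near 0 and Krt7, Krt8, Krt18 and Krt14 lie below it. On replicate 2 the line runs from 0.84 in the lowest step to −1.59 in the highest and Krt18 lies above it.

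The other luminal keratins read low on every array. Krt19, a type I keratin of luminal and ductal cells, read 4.75, 4.99 and 4.64 in DOX arrays, against 4.92, 4.80 and 4.67 in control arrays. The groups overlapped, and the 95% confidence interval of the difference was −0.45 to 0.44 (limma adjusted p = 0.99). Krt20, a type I keratin best known from intestinal and urothelial epithelium, read 3.94, 4.97 and 4.08 in DOX arrays, against 4.46, 4.31 and 4.61 in control arrays. DOX replicate 2 was the highest of the 6 arrays and the other DOX arrays were the lowest. The difference was −0.13 with all arrays (limma adjusted p = 0.818), and without DOX replicate 2 Krt20 fell by 0.45 (SE 0.13, limma adjusted p = 0.0212). The 5 luminal keratins had a median difference of −0.64 in both fits, where the median over all genes was 0.02 and 0.01. In each fit this is the value of Krt18, and all genes are not matched to it in level. Genes with a control mean of at least 11 differed by a median of −0.10, −1.50 and −0.17 on DOX replicates 1, 2 and 3.

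Among the 4 basal keratins Krt14 alone did not overlap between groups with all arrays, and without DOX replicate 2 Krt17 did not overlap either. Krt14, the type I keratin of basal and myoepithelial cells, read 5.34, 5.83 and 5.76 in DOX arrays, against 6.50, 6.55 and 6.77 in control arrays. DOX replicate 2 was the highest DOX array and still below every control. The means were 5.64 ± 0.26 in DOX arrays and 6.61 ± 0.14 in control arrays (SD, n = 3 each), and the log2 difference was −0.96 (SE 0.21, 95% confidence interval −1.46 to −0.47, limma adjusted p = 0.0831). When DOX replicate 2 was left out, Krt14 fell by 1.06 (SE 0.15, limma adjusted p = 3.38e-04), which is 2.08-fold lower. In both fits its adjusted p was the smallest of the keratins. On a single-gene two-sided exact permutation test Krt7, Krt8, Krt18 and Krt14 each gave p = 0.1 with all arrays and p = 0.2 without DOX replicate 2, the smallest p that each design allows.

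Krt5, the type II partner of Krt14, read 5.36, 5.56 and 4.99 in DOX arrays, against 5.39, 5.49 and 4.84 in control arrays. The groups overlapped almost wholly, with replicate 3 lowest in both. The estimate was 0.07 (95% confidence interval −0.55 to 0.69, limma adjusted p = 0.886) with all arrays and −0.06 (95% confidence interval −0.48 to 0.36, limma adjusted p = 0.854) without DOX replicate 2. Krt5 read below the median gene, and whether its difference departs from that of Krt14 was not tested.

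Krt15, a type I keratin of basal progenitors in stratified epithelium, gave 0.08 with all arrays (limma adjusted p = 0.843) and −0.11 without DOX replicate 2 (limma adjusted p = 0.527). Krt17, a type I keratin of basal cells and skin appendages, gave −0.14 and −0.25 in these fits (limma adjusted p = 0.713 and 0.232). With all arrays the 4 basal keratins had a median of −0.04, without DOX replicate 2 one of −0.18, and it was 0.03 when each array was centred on its median.

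Of the 12 squamous keratins none passed in either fit. Krt10, which pairs with Krt1 in the suprabasal epidermis, read 5.56, 5.69 and 5.68 in DOX arrays, against 5.83, 6.06 and 5.95 in control arrays. The DOX arrays lay wholly below the controls, with a difference of −0.30 (SE 0.17, limma adjusted p = 0.448) with all arrays and −0.32 (SE 0.12, limma adjusted p = 0.0682) without DOX replicate 2. The wound-induced keratin Krt6a read 4.86, 5.38 and 5.11 in DOX arrays, against 4.71, 5.34 and 4.34 in control arrays. Its control arrays alone had an SD of 0.51, and its difference of 0.32 was within that spread (limma adjusted p = 0.576).

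Krt6b, a close copy of Krt6a, differed by 0.03 and Krt16, the usual type I partner of both, by 0.16 (limma adjusted p = 0.951 and 0.728). Among the other 5 arrays the differences were 0.19 for Krt6a, −0.23 for Krt6b and 0.04 for Krt16. Probes of near-identical keratins can share signal, so Krt6a and Krt6b are uncertain as separate values. Squamous keratins had a median of 0.22 over all arrays, 0.02 without DOX replicate 2 and −0.05 after a second quantile normalization of all arrays. Differences ranged from −0.30 to 0.51 with all arrays and from −0.32 to 0.29 without DOX replicate 2.

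**Figure D3:**
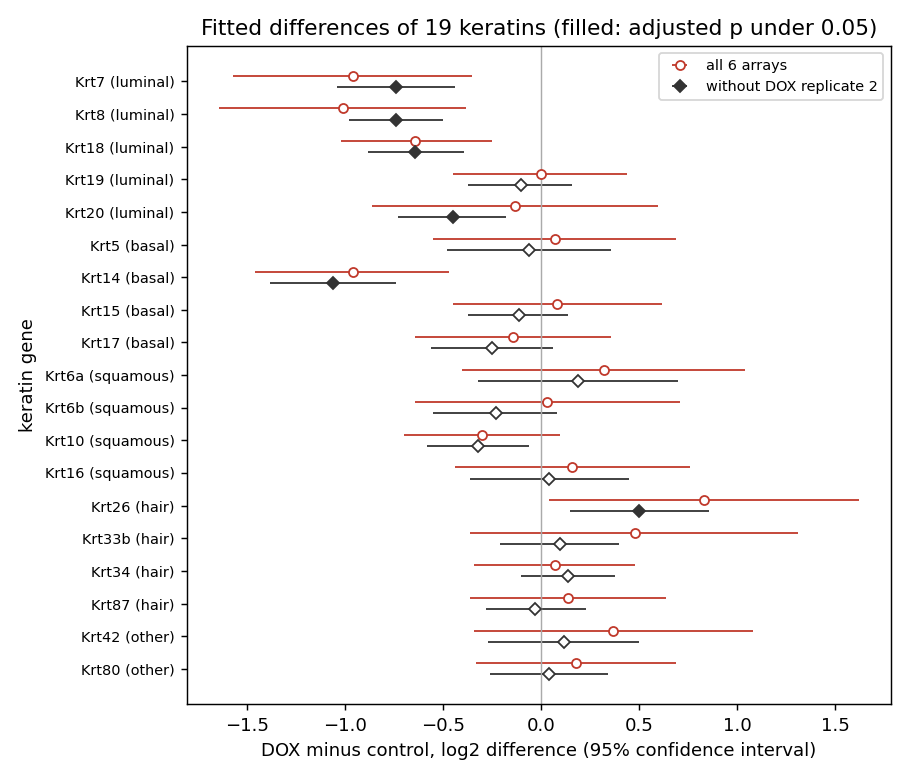
Fitted DOX minus control differences (x axis, log2) with 95% confidence intervals for the 19 keratins described singly, from all 6 arrays (red circles) and without DOX replicate 2 (dark diamonds). Symbols are filled where the adjusted p is under 0.05: no red symbol is filled, and the diamonds of Krt7, Krt8, Krt18, Krt20, Krt14 and Krt26 are.

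Of the 21 hair keratins none passed with all arrays, and 1 passed without DOX replicate 2 (4.76%). In that fit 12.3% of all genes rose and 26.6% passed in either direction. Krt26, a type I keratin of the inner root sheath, read 4.37, 5.63 and 4.94 in DOX arrays, against 4.01, 4.21 and 4.23 in control arrays. Every DOX array lay above every control array, and DOX replicate 2 was the highest. The difference was 0.83 (SE 0.33, limma adjusted p = 0.335) with all arrays, and without DOX replicate 2 Krt26 rose by 0.50 (SE 0.16, limma adjusted p = 0.0412). Its control mean of 4.15 was in the second lowest 10% of genes, where the median gene differed by 0.93 on DOX replicate 2.

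Krt33b, a type I keratin of the hair cortex, read 7.06, 8.35 and 7.36 in DOX arrays, against 6.93, 7.24 and 7.17 in control arrays. DOX replicate 2 was the highest, 1.24 above the control mean, where genes of its step of control level read a median of −0.75. Over all arrays the difference was 0.48, and 0.10 without DOX replicate 2 (limma adjusted p = 0.504 and 0.663). Krt34 and Krt87, keratins of the hair shaft, differed by 0.07 and 0.14 with all arrays (limma adjusted p = 0.826 and 0.72). Among the other 5 arrays they differed by 0.14 and −0.03.

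For the 13 keratins of the hair shaft the median difference over all arrays was 0.29, and 0.08 without DOX replicate 2. For the 8 keratins of the root sheath and companion layer it was 0.23 and −0.05. Over all 21 hair keratins the median was 0.24, against 0.01 without DOX replicate 2 and −0.02 after a second quantile normalization. On DOX replicate 2 the hair keratins read a median of 0.75 above control, where genes in the same steps of control level read 0.64.

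Among the 9 other keratins none passed in either fit. Krt80, a type II keratin found in many epithelia, differed by 0.18 and Krt42, a mouse type I keratin related to Krt17, by 0.37 with all arrays (limma adjusted p = 0.655 and 0.53). Leaving out DOX replicate 2 gave 0.04 and 0.12. The remaining 7 genes were Krt12, Krt23, Krt24, Krt79, Krt88, Krt90 and Krt222, and the differences of the 9 ran from −0.21 to 0.37 with all arrays. Krt23 had the largest decrease of the 9 without DOX replicate 2, at −0.48 (limma adjusted p = 0.0572), and was singled out after its value was seen.

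Of the 44 keratins at or below the median gene, 38 read highest of all 6 arrays on DOX replicate 2 (86.4%), where 76.7% of all genes at or below the median gene did. Their median difference on that array was 0.52, where genes of the same steps read 0.64. On DOX replicates 1 and 3 it was −0.07 and −0.02. On DOX replicates 1, 2 and 3 the squamous keratins read a median of −0.17, 0.57 and 0.11 from control, and the hair keratins −0.02, 0.75 and 0.04. The positive median of both groups was thus largest on DOX replicate 2.

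**Figure D4:**
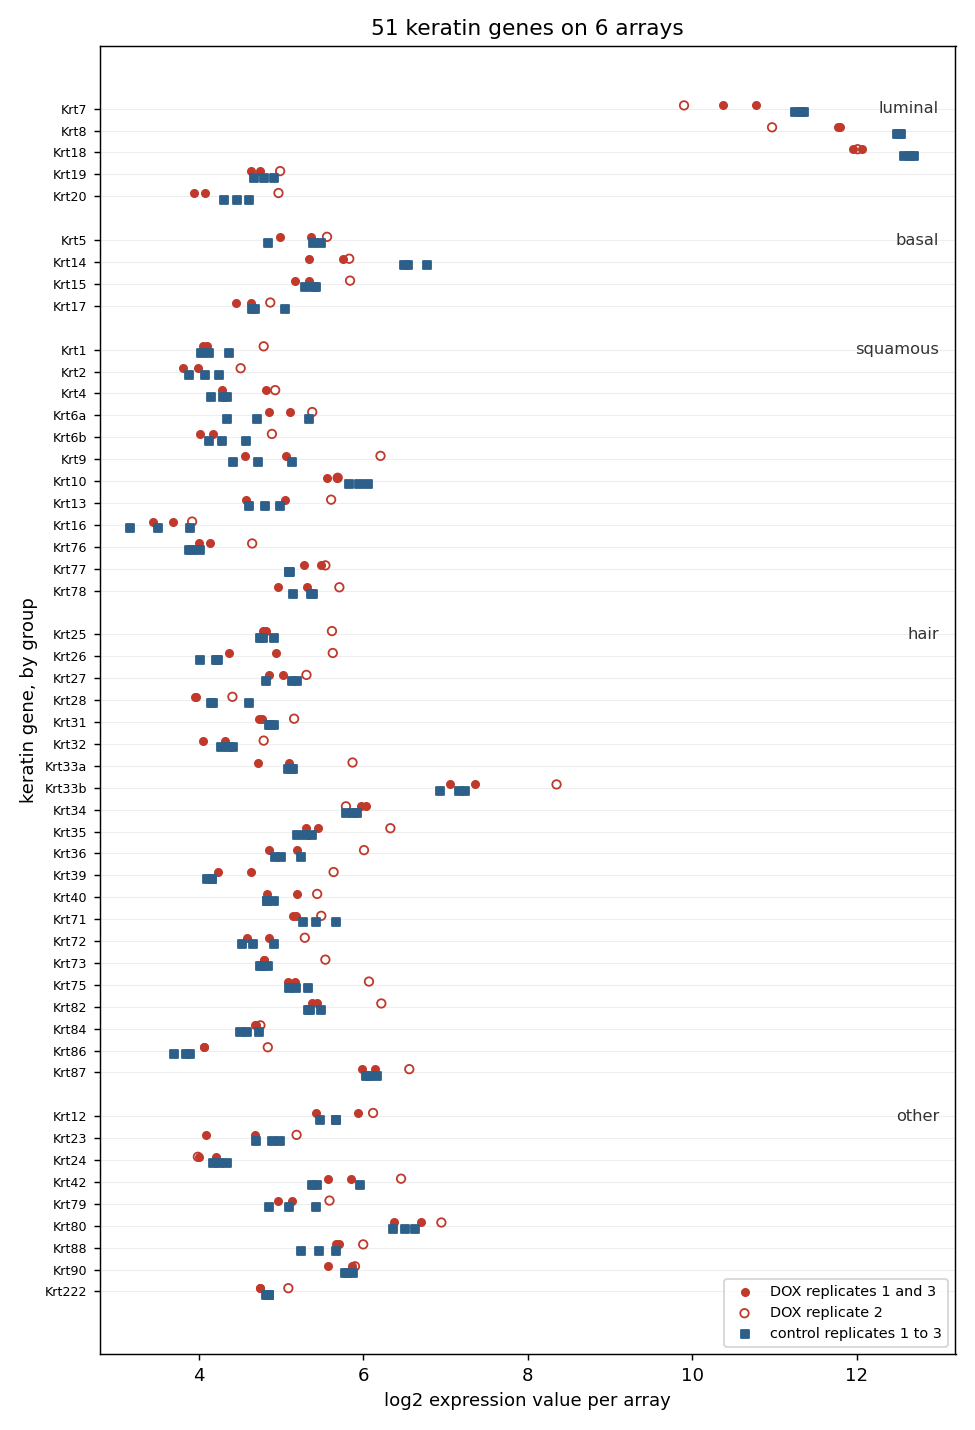
Log2 expression value per array (x axis) of all 51 keratins, listed by group, with DOX arrays as red circles (replicate 2 open) and control arrays as blue squares. For Krt7, Krt8, Krt18 and Krt14 the control arrays lie above the DOX arrays, and 41 of the 51 keratins read highest on DOX replicate 2, as did 42.5% of all genes and 76.7% of genes at or below the median gene.

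Genes of the structures that anchor keratin filaments were read from lists and are given as counts. With all arrays 2.38% of all genes passed in either direction, and without DOX replicate 2 12.3% rose, 14.3% fell and 26.6% passed. In the latter fit 41.9% of genes above the median gene passed, and 11.3% of those at or below it. Of 12 measured desmosome genes none passed with all arrays (median −0.17), and 5 rose and 2 fell without DOX replicate 2 (58.3%, median 0.13), against 26.6% of all genes. Most of them, 10 of 12, lay above the median gene, where the share was 41.9%. Dsg3, a desmosomal cadherin of stratified epithelium, read 9.39, 6.97 and 9.15 in DOX arrays, against 7.60, 7.39 and 7.64 in control arrays. Its DOX replicates 1 and 3 were above and DOX replicate 2 below all controls, and without DOX replicate 2 it rose by 1.73 (SE 0.13, limma adjusted p = 3.50e-06). Dsc2, a desmocollin, rose by 0.91 in the same fit (SE 0.13, limma adjusted p = 3.85e-04). With all arrays Dsg3 and Dsc2 differed by 0.96 and 0.34 (limma adjusted p = 0.477 and 0.702).

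Of 9 hemidesmosome and plakin genes none passed with all arrays (median 0.13), and 4 rose and 1 fell without DOX replicate 2 (55.6%, median 0.34), against 26.6% of all genes. Here 8 of 9 lay above the median gene, where the share was 41.9%. Dst, which encodes the plakin dystonin, rose by 1.02 (SE 0.14, limma adjusted p = 4.22e-04) in that fit. Itga6, the alpha 6 integrin of hemidesmosomes, fell by 0.93 in it (SE 0.13, limma adjusted p = 4.62e-04). With all arrays they differed by 0.71 and −1.53 (limma adjusted p = 0.37 and 0.245). Of 22 cornified envelope genes, whose products cross-link at the surface of squamous cells, none passed with all arrays (median 0.51). Without DOX replicate 2, 4 rose and 1 fell (22.7%, median 0.23), against 26.6% of all genes. Only 2 of these 22 genes lay above the median gene. Of all genes at or below it, 11.3% passed in that fit. With all arrays 10 of the 22 lay wholly above the controls and 2 wholly below, against 11.7% and 20.3% of all genes. Without DOX replicate 2 these counts were 10 and 3, against 25.4% and 26.2% of all genes. Low genes read high on DOX replicate 2, and these shares were not taken over low genes alone. Sprr2e, a precursor of the envelope, differed by 1.24 with all arrays (limma adjusted p = 0.364) and rose by 0.63 without DOX replicate 2 (SE 0.18, limma adjusted p = 0.0229). Tgm1, a transglutaminase, differed by −0.35 with all arrays (limma adjusted p = 0.456) and fell by 0.48 without DOX replicate 2 (SE 0.14, limma adjusted p = 0.0242).

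Of 15 genes of other intermediate filaments none passed with all arrays (median 0.09), and none rose and 5 fell without DOX replicate 2 (33.3%, median −0.14), where 14.3% of all genes fell. Nes, which encodes nestin, differed by −1.63 with all arrays (limma adjusted p = 0.187) and fell by 1.07 without DOX replicate 2 (SE 0.12, limma adjusted p = 9.43e-05). Lmnb1, a nuclear lamin, differed by −1.09 with all arrays (limma adjusted p = 0.122) and fell by 0.82 without that array (SE 0.12, limma adjusted p = 3.88e-04). Of 17 epithelial transcription factors 1 fell and none rose with all arrays (5.88%), against 2.38% of all genes. It was Elf5, a factor of alveolar luminal cells, which read 8.07, 7.27 and 8.38 in DOX arrays, against 10.08, 10.17 and 10.03 in control arrays (difference −2.19, SE 0.31, limma adjusted p = 0.0189). Without DOX replicate 2 Elf5 fell by 1.86 (limma adjusted p = 1.63e-06), and 2 of these factors rose and 4 fell (35.3%), against 26.6% of all genes. Of the 17, 11 lay above the median gene, where the share was 41.9%.

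Markers of other cells were read beside these values. None of the 8 fibroblast, 6 adipocyte and 5 endothelial genes passed in either fit. With all arrays no gene of the 7 leukocyte, 5 skeletal muscle and 10 hair follicle and skin genes passed. Without DOX replicate 2, 2 of the leukocyte genes rose (28.6%), 3 of the skeletal muscle genes fell (60%) and 1 of the hair follicle genes rose (10%), against 26.6% of all genes in either direction. Cd68, a macrophage marker, differed by 0.49 with all arrays (limma adjusted p = 0.568) and rose by 1.01 without DOX replicate 2 (limma adjusted p = 1.03e-04). Ptprc, the common leukocyte antigen, differed by 0.52 with all arrays (limma adjusted p = 0.319) and rose by 0.38 without that array (limma adjusted p = 0.0358). The other 5 leukocyte genes passed in neither fit. The leukocyte list averaged 4.93, 5.54 and 5.13 on DOX replicates 1, 2 and 3, and 4.79 to 4.84 in control arrays. On the DOX arrays its median difference from control was −0.05, 0.80 and 0.21. Genes of the same steps of control level read −0.01, 0.93 and 0.14. On DOX replicate 2 the fibroblast, adipocyte and endothelial lists averaged 5.71, 4.95 and 5.18, against at most 4.91, 4.43 and 4.29 in control arrays. The mean level of the skeletal muscle list was 5.58 to 5.93 in DOX arrays and 5.75 to 5.88 in control arrays. The part of these cells in the keratin differences was not tested. The luminal list averaged 9.34, 8.40 and 9.21 on DOX replicates 1, 2 and 3, and 9.55 to 9.57 in control arrays. The basal list averaged 5.08, 5.74 and 5.27 on these DOX arrays, and 5.45 to 5.59 in control arrays. For the hair follicle and skin list the mean level was 4.94, 5.47 and 5.10 on them, and 4.90 to 5.02 in control arrays. When DOX replicate 2 was left out, 1 of 12 luminal markers rose (Cldn4) and 4 fell (Krt8, Krt18, Elf5 and Muc1), which is 41.7%. Of these 12 markers 9 lay above the median gene, where 41.9% of all genes passed in that fit. In that fit 2 of 9 basal markers fell (22.2%), Krt14 and Oxtr, against 26.6% of all genes. Cldn4, a claudin, read 12.73, 11.05 and 12.13 in DOX arrays, against 10.53, 10.59 and 10.53 in control arrays. It rose by 1.88 without DOX replicate 2 (SE 0.16, limma adjusted p = 1.01e-05) and differed by 1.42 with all arrays (limma adjusted p = 0.192). With all arrays Elf5 fell among the luminal markers and Oxtr among the basal ones. Oxtr, the oxytocin receptor of myoepithelial cells, read 5.11, 4.80 and 5.70 in DOX arrays, against 7.07, 7.06 and 7.22 in control arrays. All DOX arrays lay below all control arrays, and Oxtr fell by 1.91 with all arrays (SE 0.26, limma adjusted p = 0.018). Leaving out DOX replicate 2, it fell by 1.71 (SE 0.16, limma adjusted p = 2.03e-05).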

How the data were processed

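RNA of 6 organoid cultures was measured on Affymetrix mouse arrays. Per the submitters' processing notes the authors used RMA and affy, with no version given, and the deposited values are log2. Of 34760 probe sets, 21640 had 1 gene symbol in the platform annotation and were used, 1321 had several and 11799 had none here. Where a gene had several, the one of highest mean was kept, which left 19937 genes. A GRCm38.p6 gene table, searched by identifier, changed 0 symbols. Coordinates are given only for the printed RefSeq windows.

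DOX and control arrays were compared over all genes by a two-sided test without covariates (eBayes on lmFit, limma 3.58.1, R 4.3.3), with Benjamini-Hochberg adjustment over all genes, a threshold of 0.05 and moderated standard errors. The fit was tested on simulated data with the spread of the control arrays in both groups. Those data held no array like DOX replicate 2, so the test does not cover that case. Krt7, Krt8, Krt18 and Krt14 alone were also given an exact permutation test. As their groups did not overlap, its p could only be the smallest possible. The number of arrays limits the precision. The keratins, groups and lists were chosen with earlier results of these data known. Keratins described singly were those past the threshold in either fit and those whose higher group mean exceeded 5.92. Also described, whatever their p, were 12 keratins set by name (Krt5, Krt6a, Krt6b, Krt7, Krt8, Krt10 and Krt14 to Krt19). From a list came its calls with all arrays (at most 4, by smallest p). Failing these, the 2 calls of smallest p without DOX replicate 2 were taken. Krt23, Cldn4, Krtap24-1 and Krtap5-2 were described outside these rules. Alternatives were the replicate number as a block, each array left out, filters on low values, other normalizations, the mean over probe sets, other variance models and another threshold.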

Additional observations from a re-analysis of the deposited data

How the results depend on the processing

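The 0 keratins higher and 0 lower became 4 and 5 with array weights, where 18.3% and 18.8% of all genes were called, and 0 and 3 after a second quantile normalization (Krt8, Krt18 and Krt14), where 0.928% and 3.14% were. Leaving out 1 array each gave 0 to 1 higher and 0 to 5 lower, with calls only without DOX replicate 2. At a threshold of 0.1, 1 was lower (Krt14), where 3.36% of all genes were. With 2 choices at once, chosen after seeing the data, 9 of 51 were lower without DOX replicate 2 after quantile normalization, where 17.1% of all genes were, and 4 of 7 without it and the 50% of genes with the lowest means, where 27.8% of the genes kept were. The luminal median was −0.80 and −0.96 without the lowest 25% and 50% of genes, and the basal median −0.32 after quantile normalization. Without the lowest 50% the only basal keratin kept was Krt14, through its control arrays, so the basal value of −0.96 there is its own. No squamous keratin remained without the lowest 50%, so that median has no value there. With 1 array left out the luminal, basal, squamous and hair medians ran from −0.66 to −0.61, −0.18 to 0.09, 0.02 to 0.34 and 0.01 to 0.38. Krt7, Krt8, Krt18 and Krt14 were lower in all 14 alternatives, and past the threshold in 2, 3, 3 and 3 of them. For these genes every DOX array lay below every control array, so leaving out or weighting arrays could not turn the sign. The block, the filters, the variance trend and the mean over probe sets left their differences as they were. Only the other normalizations could have turned the sign, so the number of alternatives is no measure of support.

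Some signs turned among differences that did not pass. After quantile normalization Krt15 was −0.13, Krt16 −0.10, Krt34 −0.10, Krt5 −0.18 and Krt6b −0.30. With array weights Krt15 was −0.15, Krt16 −0.06, Krt5 −0.16, Krt6b −0.15, Krt80 −0.05 and Krt87 −0.06, and with arrays centred on their medians Krt19 was 0.07. With 1 array left out Krt15 ran from −0.11 to 0.22, Krt16 from −0.01 to 0.34, Krt19 from −0.10 to 0.07, Krt20 from −0.45 to 0.07, Krt5 from −0.13 to 0.23, Krt6b from −0.23 to 0.21 and Krt87 from −0.03 to 0.26. The cause was not tested. Same-numbered arrays deviated together weakly (correlations 0.117, 0.194 and 0.0852). Of the pairs of unlike number, DOX replicate 3 with control replicate 1 reached 0.116 and DOX replicate 1 with control replicate 3 reached 0.0877. The rest ran from −0.185 to −0.0914. These values do not settle whether the numbers mark pairs, and the main fit did not use them as such. With the replicate number as a block 0 keratins were higher and 0 lower, and 3 of all genes were higher and 159 lower, against 24 and 450 without the block.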

Other observations

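Genes of the keratin-associated proteins, which cross-link keratin filaments in the hair shaft, were read after their values were seen and lie outside the keratin family. Of 44 such genes with a probe set of their own, 0 were higher and 0 lower with all arrays at an adjusted p under 0.05 in limma. At an unadjusted p under 0.05 there were 9, where 14% of all genes passed. Without DOX replicate 2, 14 rose and none fell (31.8%), where 12.3% of all genes were higher. All 44 read higher on DOX replicate 2 than on every control array, as did 9124 of all 19937 genes. Of the 44, 7 lay above the median gene, and low genes read high on that array. Their median difference from control on DOX replicates 1, 2 and 3 was 0.10, 1.40 and 0.39, where genes of the same steps of control level read −0.01, 0.82 and 0.09. Krtap24-1 read 4.68, 7.82 and 5.42 in DOX arrays, against 4.11, 4.12 and 3.85 in control arrays (difference 1.95, SE 0.76, limma adjusted p = 0.323). Krtap5-2 read 5.75, 7.64 and 6.46 in DOX arrays, against 5.21, 5.09 and 4.83 in control arrays (difference 1.57, SE 0.47, limma adjusted p = 0.198). Every DOX array lay above every control array for both genes, and without DOX replicate 2 they rose by 1.02 and 1.06 (limma adjusted p = 0.0023 and 0.00191). Whether the hair keratins and these genes differ from each other in their shift was not tested.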
